A study of Mus musculus with 4 samples.

Results

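Type A intercalated cells, the acid-secreting cells of the renal collecting duct, were picked out of 4 single-cell libraries of mouse renal cortex by the RNA of the proteins that do their work. A barcode was kept when it had at least 1000 genes and at most 50% of its unique molecular identifiers (UMIs) from mitochondrial genes, when Atp6v1g3 and Atp6v0d2, a pair of proton pump subunits, together reached 5 UMIs per 10000 UMIs of the barcode (CP10k), and when Slc4a1 reached 1 CP10k and exceeded Slc26a4. The rule kept 682 of the 32407 barcodes that passed the filters, out of 48085 barcodes in all. Type B intercalated cells (970 barcodes, the same pump cutoff with Slc26a4 of at least 1 CP10k and above Slc4a1) and principal cells (2203 barcodes, pump below 5 CP10k and Aqp2 of at least 10 CP10k) served as neighbours for comparison. The cells were therefore chosen by their measured Atp6v1g3, Atp6v0d2, Slc4a1 and Slc26a4 values, which are given as description only.

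The study asked how age and loss of Tfeb, a transcription factor for lysosomal and autophagy genes, change the kidney. Each library came from the cortex of 2 or 3 male mice pooled before digestion, and 1 library stood for each of 4 groups, given below always in this order: young Tfebfl/fl mice (6 weeks), young Tfebfl/fl KAP mice (6 weeks), aged Tfebfl/fl mice (24 months) and aged Tfebfl/fl KAP mice (24 months). All mice carried floxed Tfeb alleles, and only the KAP mice carried Cre, driven by the androgen-regulated kidney androgen-regulated protein promoter, which drives Cre in proximal tubule cells of the S3 segment, so that the type A cells themselves are not its stated target. With 1 pooled library per group there is no replicate, so that no p-value can be given, and every interval below is an exact 95% interval that covers counting error only. Differences between mice, pools and preparations cannot be told apart from age or genotype.

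Intercalated cells set the acid content of urine. The type A cell takes up carbon dioxide, which carbonic anhydrase turns into protons and bicarbonate. A multi-subunit vacuolar proton pump (V-ATPase) moves the protons across the apical membrane, and the chloride/bicarbonate exchanger encoded by Slc4a1 returns the bicarbonate to the blood. The type B cell runs the reverse course with pendrin, the product of Slc26a4, and the principal cell between them reabsorbs sodium and water. The forkhead factor Foxi1 is required for the intercalated fate.

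The libraries held 285, 128, 134 and 135 type A cells, with medians of 19568, 25471.5, 23812.5 and 26816 UMIs and of 4691, 5020.5, 5391.5 and 5240 genes per cell. Their UMIs summed to 6005763, 3432755, 3966165 and 3854255. Mitochondrial genes took 15.3, 10.3, 10.3 and 12.9% of these sums, ribosomal protein genes 5.98, 7.26, 6.69 and 6.90%, and the nuclear RNA Malat1 1.5, 1.40, 1.92 and 2.02%. The young Tfebfl/fl library was thus the largest, the shallowest per cell and the richest in mitochondrial RNA. Over all pairs of libraries 233 barcodes were shared, 97 of them between barcodes that passed the filters, and none of these was a type A cell in both libraries. At the edges of the rule, the lowest pump sum inside was 5.01 CP10k and the highest outside 4.97 CP10k, with 102 cells between the threshold and 10 CP10k, and the lowest Slc4a1 inside was 1.01 CP10k against 0.98 CP10k outside, with 53 cells below 2 CP10k.

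Type A cells made up 2.59% (95% interval 2.30 to 2.90), 1.51% (1.26 to 1.79), 2.24% (1.88 to 2.64) and 1.95% (1.64 to 2.30) of the barcodes that passed. The low value belonged to the young KAP library, whose share was 0.584 times that of the young Tfebfl/fl library (log2 ratio -0.78, interval -1.09 to -0.47). The other ratios were -0.21 (-0.52 to 0.09) for age in Tfebfl/fl mice, 0.37 (0.01 to 0.73) for age in KAP mice and -0.20 (-0.56 to 0.16) for genotype in aged mice. Such a share depends on every other cell type that survived digestion. Among intercalated cells themselves, type A took 41.3% (37.6 to 45.1), 41.0% (35.5 to 46.7), 42.8% (37.3 to 48.5) and 40.1% (34.8 to 45.5), and all 4 intervals overlapped. The filter on mitochondrial RNA moved the first of these measures. With at most 20% of UMIs from mitochondrial genes, 180, 104, 117 and 111 type A cells were left, and the log2 ratio of the share was -0.46 for genotype in young mice and 0.14 for age in Tfebfl/fl mice.

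**Figure D1:**
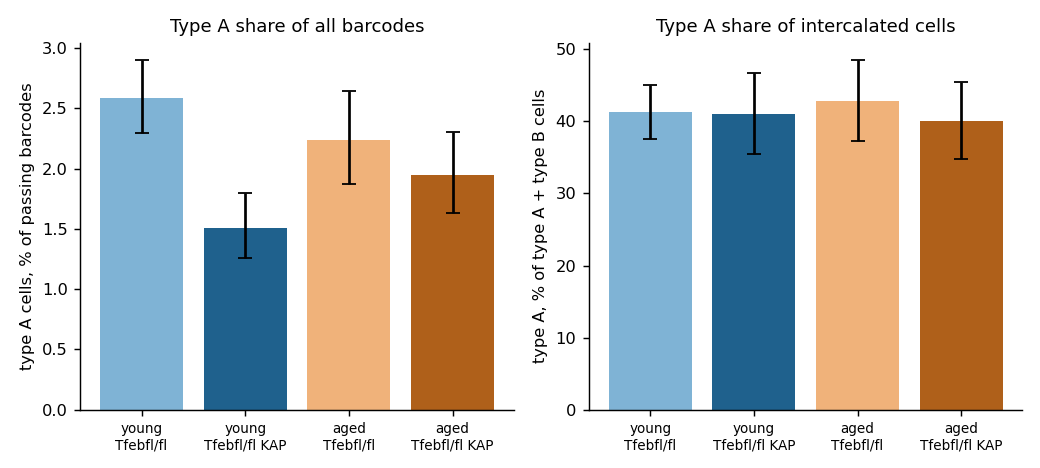
Left, type A cells as a percentage of the barcodes that passed the filters, and right, as a percentage of type A and type B cells together, in each of the 4 libraries. Bars start at 0 and error bars are exact 95% binomial intervals for counting error. The young KAP library is lowest on the left (1.51%), while all 4 libraries lie between 40.1% and 42.8% on the right.

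RNA sums of the chosen cells carried the label. Expression is given in CPM, the UMIs of a gene scaled to 1000000 UMIs summed over the type A cells of a library. Among the genes of the rule, Slc4a1 stood at 650, 686, 638 and 552 CPM, Atp6v1g3 at 1451, 1826, 1648 and 1821 CPM and Atp6v0d2 at 468, 463, 479 and 401 CPM. Genes that the rule did not read followed the same cells. Aqp6, a water channel kept in the intracellular vesicles of type A cells, had 903, 900, 885 and 701 CPM in type A cells, 87.9, 77.3, 109 and 81.6 CPM in type B cells and 42.5, 13.4, 27 and 15.1 CPM in principal cells. When every barcode was thinned to 5000 UMIs and shallower ones were left out, 87.8, 93.5, 94.7 and 89.3% of type A cells had an Aqp6 UMI, against 14.4 to 19.0% of type B and 2.29 to 4.31% of principal cells. The adhesion receptor gene Adgrf5 had 612, 593, 585 and 516 CPM in type A and 71.1 to 93.3 CPM in type B cells. The receptor tyrosine kinase gene Kit had 367, 308, 354 and 333 CPM against 50.8 to 65.9 CPM, and the transcription factor gene Dmrt2 had 138, 130, 177 and 167 CPM against 6.63 to 24.6 CPM. No library overlapped the type B range for any of these genes.

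Against type B cells, 23 genes were at least 2-fold higher and 27 at least 2-fold lower in type A cells in all 4 libraries, among 3268 genes with a mean of at least 50 CPM over both cell types (0.704% and 0.826%). Since the rule chose the cells by this contrast, the counts describe the selection. The highest median log2 ratios outside the rule were those of Cbr2, a carbonyl reductase gene, at 3.88, Dmrt2 at 3.71, Aqp4 at 3.30, Aqp6 at 3.23, Adgrf5 at 2.77, Mme, the gene of the membrane peptidase neprilysin, at 2.67, Kit at 2.62, Nupr1 at 2.57 and the creatine kinase gene Ckb at 2.48. Tgif1 followed at 2.03, Prss23 at 1.66 and the small heat shock protein gene Cryab at 1.66. The lowest were Hmx2, a homeobox gene of type B cells, at -4.03, the sulfotransferase gene Sult2a3 at -3.96, Syt7 at -3.92, the receptor gene Insrr at -3.51, Pmp22 at -3.49 and Igfbp5 at -3.40. Stap1 was at -2.63, Enpp2 at -2.56, Emb at -2.51, Nbea at -2.25 and the Notch ligand gene Jag1 at -1.89.

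The 7 markers listed for type B cells summed to 839, 913, 1010 and 831 CPM in type A cells, against 3300 to 3777 CPM in type B cells. Hmx2 had 27, 35.5, 55.5 and 15.8 CPM in type A cells against 462 to 616 CPM in type B cells, and Insrr 18.0, 30.3, 34.3 and 14.3 CPM against 255 to 279 CPM. Slc26a4, which the rule holds below Slc4a1 in each cell, had 7.83, 32.0, 58.2 and 28.8 CPM against 819 to 1050 CPM. These 3 genes were highest in the aged Tfebfl/fl library. Some genes often listed as type B markers were not confined to type B cells. Oxgr1, the oxoglutarate receptor gene, had 263, 227, 273 and 235 CPM in type A cells against 216, 193, 247 and 209 CPM in type B cells, so that type A was higher in each library. Slc4a9, a basolateral transporter gene, had 181, 179, 276 and 221 CPM in type A and 410, 434, 504 and 530 CPM in type B cells, and 5.64 to 10.5 CPM in principal cells. Spink8 had 288 to 387 CPM in type A cells. Of the markers put on the list for type A cells, Avpr1a, a vasopressin receptor gene, had 126, 131, 98.8 and 108 CPM in type A and 174, 167, 140 and 167 CPM in type B cells, and so marked intercalated cells of either kind. P2ry14, the UDP-glucose receptor gene, was on the list for both types and had 49.3, 55.1, 27.2 and 33.0 CPM in type A against 6.44 to 9.55 CPM in type B cells.

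**Figure D2:**
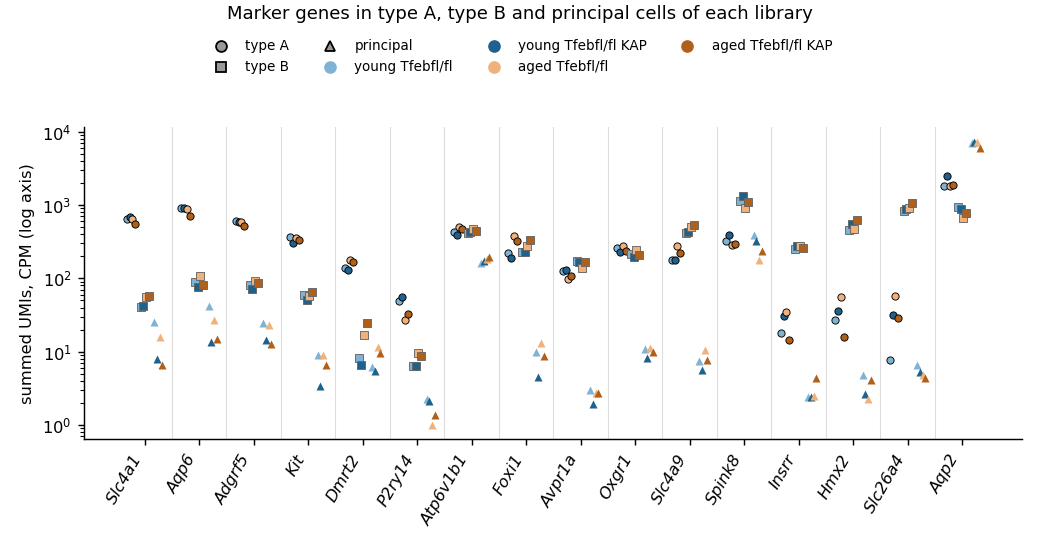
Summed expression in CPM on a log axis for 16 marker genes in type A (circles), type B (squares) and principal cells (triangles), 1 point per library coloured by group. Aqp6, Adgrf5, Kit and Dmrt2 separate type A from type B cells in every library, Oxgr1 and Avpr1a do not, and Aqp2 stays between 1790 and 2498 CPM in type A cells.

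Against principal cells, 78 genes were at least 2-fold higher and 27 at least 2-fold lower in all 4 libraries among 3334 genes (2.34% and 0.81%). Principal cells were chosen by Aqp2 and by the lack of pump RNA, so that these counts, too, describe the selection. The highest median log2 ratios outside the rule were those of Cbr2 at 6.12, Tmem61 at 5.81, Kit at 5.50, Mme at 5.36, Avpr1a at 5.35, Aqp6 at 5.29, Foxi1 at 5.03, Epb41l2 and Adgrf5 at 5.0. The lowest included Lcn2 at -1.89, Aqp4 at -1.79, the vasopressin V2 receptor gene Avpr2 at -1.56 and Fxyd4 at -1.44. Aqp2, the apical water channel of principal cells, had 1790, 2498, 1794 and 1875 CPM in type A cells, 928, 885, 662 and 771 CPM in type B cells and 6976, 7318, 7166 and 5968 CPM in principal cells. Type A cells were above type B cells in each library, while the level in principal cells was set by the choice of those cells.

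RNA of other tubule segments was present too and its amount moved with the groups. The 8 principal cell markers summed to 7145, 9895, 8271 and 8543 CPM, led by Hsd11b2, and exceeded 20 CP10k in 147, 72, 79 and 84 cells. The 6 markers of the distal convoluted and connecting tubule, led by the calcium-binding protein gene Calb1, summed to 4484, 3562, 1615 and 1589 CPM and exceeded 20 CP10k in 104, 44, 25 and 26 cells. The 10 proximal tubule markers, led by Kap, summed to 1474, 694, 604 and 58.1 CPM, and the highest 10% of the cells held between 94.0 and 99.7% of their UMIs in each library. In the aged KAP library Kap, Miox and Slc7a13 were listed at 0 counts. A count of 0 allows up to 0.778 CPM by counting error alone, but the listed zeros of this library may be corrected values, and Kap stood at 25675 CPM over all its passing barcodes. The 4 thick ascending limb markers summed to 560, 142, 57.2 and 149 CPM. Haemoglobin and other erythroid genes summed to 497 CPM in the young Tfebfl/fl library and to 0, 0 and 0.26 CPM in the others. Immune, stromal, podocyte and endothelial lists reached at most 30.6, 11.1, 2.66 and 36.7 CPM. The young libraries therefore held more distal and connecting tubule RNA and the young Tfebfl/fl library more proximal, thick limb and erythroid RNA. Scrublet, a doublet caller, marked 31, 17, 5 and 6 of the type A cells, and the effect of leaving such cells out is given below where it changed a direction.

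**Figure D3:**
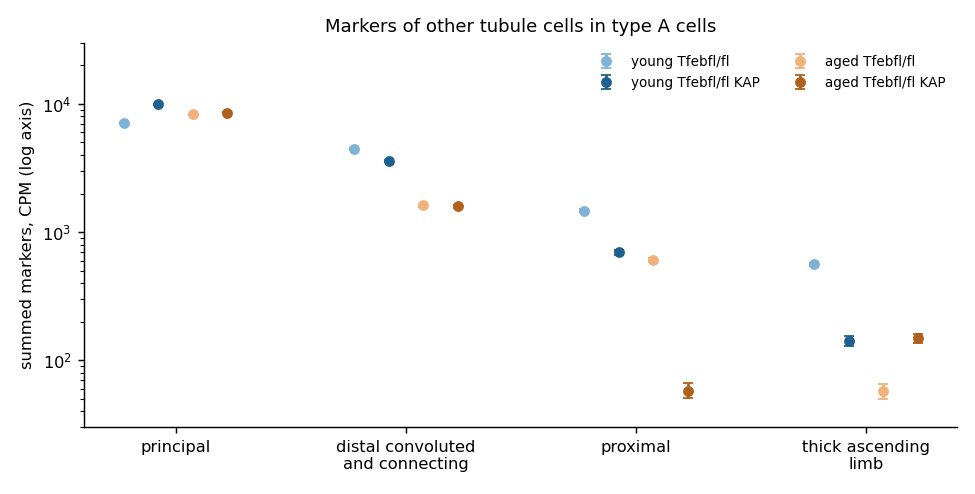
Summed markers of 4 other tubule cell types in the type A cells of each library, in CPM on a log axis, with exact 95% intervals (mostly smaller than the points). Distal convoluted and connecting tubule markers lie at 4484 and 3562 CPM in the young and at 1615 and 1589 CPM in the aged libraries, and proximal tubule markers fall to 58.1 CPM in the aged KAP library.

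None of the genes of the acid-secreting pump passed the threshold between groups. Of the 13 genes for the V1 sector, which splits ATP, 11 had a mean of at least 10 CPM, and of the 12 genes for the membrane-embedded V0 sector and its accessory proteins 10 did. A gene was counted as higher or lower between groups when its CPM differed at least 1.5-fold with an interval that left out no difference, among genes with a mean of at least 20 CPM in both libraries together. No V-ATPase gene met this rule in any of the 4 comparisons, where 9.98% (age in Tfebfl/fl mice), 5.38% (age in KAP mice), 3.83% (genotype in young mice) and 2.33% (genotype in aged mice) of all genes tested did. Their median log2 ratios for age were -0.07 (V1) and 0.04 (V0) in Tfebfl/fl mice and -0.13 and -0.23 in KAP mice, and for genotype -0.08 and 0.04 in young and -0.10 and -0.06 in aged mice. The rule itself read Atp6v1g3 (V1) and Atp6v0d2 (V0). Without them, none of the other 10 V1 and 9 V0 genes passed the threshold either, and the medians were -0.07, -0.14, -0.10 and -0.12 for V1 and 0.05, -0.26, 0.05 and -0.05 for V0 in the 4 comparisons. Over the 8529 genes with at least 10 CPM the medians were 0.16, 0.02, 0.04 and -0.07 for the same 4 comparisons, and each list below is read beside them. Atp6v1b1, the B subunit of the intercalated cell whose loss causes renal tubular acidosis with deafness, had 431, 395, 505 and 471 CPM. Atp6v1a, the catalytic A subunit, had 2197, 2018, 1977 and 1711 CPM, and Atp6v0a4, the kidney form of the a subunit, 560, 529, 617 and 594 CPM. The subunit genes with kidney-restricted forms were shared with type B cells at different levels, with Atp6v1c2 at 291 to 358 CPM in type A against 720 to 730 CPM in type B cells.

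Promoter sequence is shown for 3 of these genes because TFEB, whose gene the genotype comparisons concern, and Foxi1, measured here, bind known short motifs. The windows are the 250 bases before the RefSeq start (assembly GRCm38.p6), written 5′ to 3′ on the strand of the gene, with the motif match in capitals. TCACGTG is the core of the motif bound by TFEB and TGTTTAC is a forkhead motif. Atp6v1b1 (chr6:83742767-83743016, plus strand) carried TGTTTAC beginning 98 bases before the start, Atp6v1a (chr16:44139260-44139509, minus strand) carried TCACGTG on both strands, overlapping, beginning 132 bases before the start, and Aqp6 (chr15:99600950-99601199, plus strand) carried it on the opposite strand, 29 bases before the start.
Atp6v1b1: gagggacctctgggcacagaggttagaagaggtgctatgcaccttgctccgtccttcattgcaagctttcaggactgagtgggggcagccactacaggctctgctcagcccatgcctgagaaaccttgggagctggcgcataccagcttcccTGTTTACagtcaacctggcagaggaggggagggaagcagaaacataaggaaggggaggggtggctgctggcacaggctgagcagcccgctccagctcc
Atp6v1a: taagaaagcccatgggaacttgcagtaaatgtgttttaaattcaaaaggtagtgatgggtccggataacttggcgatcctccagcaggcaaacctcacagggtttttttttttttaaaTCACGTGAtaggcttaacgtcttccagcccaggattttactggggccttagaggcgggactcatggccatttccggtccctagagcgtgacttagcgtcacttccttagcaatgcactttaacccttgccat
Aqp6: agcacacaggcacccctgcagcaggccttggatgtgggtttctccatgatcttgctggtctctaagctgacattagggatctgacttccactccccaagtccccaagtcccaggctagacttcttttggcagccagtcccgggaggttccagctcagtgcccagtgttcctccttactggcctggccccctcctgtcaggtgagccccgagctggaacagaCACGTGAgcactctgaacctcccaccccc
Searched on both strands of 32851 RefSeq promoters, TCACGTG was found in 3.13% and TGTTTAC in 3.17%. The lists, unlike these shares, were counted by gene, with a gene counted once if any of its promoters matched. TCACGTG stood in 13 of 39 lysosomal genes (33.3%), in 1 of 9 V1 genes, Atp6v1a, and in 1 of 10 V0 genes, Atp6v0b. It stood in none of 8 genes of the intercalated cell list. TGTTTAC stood in 2 of these 8, Atp6v1b1 and P2ry14, and in 0 of the 39 lysosomal genes. It stood in 1 of 9 V1 genes, Atp6v1b1, and in 0 of 10 V0 genes. Of the 5 genes of the type A list, 1 held TCACGTG, Aqp6, and 0 held TGTTTAC. A match is a stretch of letters and was not tested as a site.

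The transporters around the pump formed a second list. Of the 18 acid-base transport genes with at least 10 CPM, 1 was higher and 4 lower with age in Tfebfl/fl mice and 2 were higher and 2 lower in KAP mice, while for genotype 0 of 18 tested in young and 1 of 17 in aged mice did, near the shares of all genes (3.83% and 2.33%). Over all genes tested, 8.26% of 6486 were higher and 1.71% lower with age in Tfebfl/fl mice, and 2.96% of 6395 were higher and 2.42% lower in KAP mice. The excess of higher genes in Tfebfl/fl mice (536 against 111) was 278 against 224 when the ratios were centred on their median of 0.14, and 434 against 177 with mitochondrial and ribosomal protein genes left out of the totals. The latter choice turned 189 against 155 in KAP mice into 293 against 154. Slc26a7, a basolateral anion exchanger gene of type A cells, had the lowest age ratios of the list. It had 44.5 and 34.4 CPM in the young and 4.79 and 4.15 CPM in the aged libraries, log2 ratios of -3.21 in Tfebfl/fl and -3.05 in KAP mice, the latter pair lying below the minimum mean of 20 CPM. In cells thinned to 5000 UMIs it was seen in 11.1, 9.68, 3.79 and 3.82% of type A cells, against at most 0.575% of type B and 1.01% of principal cells. The highest single cell held 9.43, 9.64, 1.71 and 0.833 CP10k. The CPM of young and aged libraries thus did not overlap. At these low levels the share of cells with a UMI does not tell how many cells expressed the gene.

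Car12, a membrane-bound carbonic anhydrase gene, fell from 344 to 221 CPM in Tfebfl/fl mice (log2 ratio -0.64) and from 396 to 194 CPM in KAP mice (-1.03). Car15, another membrane-anchored carbonic anhydrase gene, had 419, 417, 625 and 671 CPM, log2 ratios of 0.58 and 0.69, of which the second passed the threshold. The first became -1.30 in the cells with at most 50 CP10k of other tubule markers. Slc12a2, the sodium-potassium-chloride cotransporter gene, fell from 39.0 to 20.4 CPM (-0.93) and from 30.3 to 20 CPM (-0.60). Atp4a, the gastric proton-potassium pump gene, rose from 65.1 to 144 CPM (1.14) and from 78.9 to 155 CPM (0.97). Its level was 117 and 128 CPM in aged type B and 133 and 148 CPM in aged principal cells, so that it was not higher in type A cells than in their neighbours by the 1.5-fold measure. Car2, the cytosolic carbonic anhydrase, had 1575, 1698, 1476 and 1558 CPM, and the ammonia transporter genes Rhbg and Rhcg 534, 598, 607 and 627 CPM and 429, 512, 543 and 533 CPM. None of these 3 passed the threshold in any comparison.

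With age, 64 genes were higher and 30 lower in both genotypes among the 6241 tested in both (1.03% and 0.481%), and 15 were past the threshold in opposite directions. The 2 age comparisons share no library. Foxi1 rose from 219 to 378 CPM in Tfebfl/fl mice (log2 ratio 0.79, interval 0.68 to 0.89) and from 192 to 326 CPM in KAP mice (0.76, 0.63 to 0.90). The median type A cell held 1.71, 1.44, 3.61 and 2.81 CP10k of it. In type B cells Foxi1 had 228, 230, 278 and 337 CPM, log2 ratios of 0.29 and 0.55 that stayed under the fold of 1.5. Both aged libraries lay above both young ones in type A and in type B cells, and the difference between the cell types was not tested. Leaving out the cells with more than 20 CP10k of markers of the proximal tubule, thick limb, distal or erythroid lists brought the Foxi1 ratios to 0.52 and 0.68, and keeping the cells with at most 50 CP10k of all other tubule markers brought them to 0.71 and 0.51, where 1.5-fold is 0.585 on the log2 scale.

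The list of cell fate regulators as a whole did not follow Foxi1 in KAP mice. Of the 10 members tested in each pair, 3 were higher and 0 lower with age in Tfebfl/fl mice and 1 was higher and 3 lower in KAP mice, with medians of 0.36 and 0.04 over 11 genes. The shares of all genes tested were 8.26% higher and 1.71% lower in Tfebfl/fl and 2.96% higher and 2.42% lower in KAP mice. Hmx2, given above, was higher in Tfebfl/fl and lower in KAP mice. Other transcription factor genes were named by their ratios. Emx1, a homeobox gene, rose from 49.8 to 102 CPM (1.03) and from 39.9 to 93.9 CPM (1.23), and Tfap2b, an AP-2 factor gene, from 97.7 to 177 CPM (0.86) and from 95 to 189 CPM (0.99). In the cells with at most 50 CP10k of other tubule markers the first Tfap2b ratio was -0.0053. Nr1d1, a repressor of the circadian clock, rose from 45.3 to 139 CPM (1.62) and from 30.6 to 83.8 CPM (1.45). Its paralogue Nr1d2 rose by 1.86 and 1.52 on the log2 scale, and Dbp, an output gene of the clock, had 2.83, 1.46, 44.9 and 13.5 CPM. Of the clock list, 5 were higher and 1 lower of 7 tested in Tfebfl/fl mice and 2 were higher and none lower of 6 in KAP mice (8.26% and 2.96% of all genes were higher), with medians of 1.12 and -0.03 over 11 genes. For genotype in aged mice, 5 of 6 tested were lower (1.94% of all genes) with a median of -0.66, and the labels do not state the time of day of tissue collection. Notch1 had 11.5, 11.1, 30.5 and 25.4 CPM (1.41 and 1.20), and only the Tfebfl/fl pair reached the minimum mean. In type B cells Nr1d1 gave 1.57 and 1.51, Emx1 1.12 and 1.27 and Tfap2b 0.82 and 0.80, close to the type A values in each case, and in principal cells Nr1d1 gave 1.5 and 1.51.

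Among the secreted and signalling genes, Scg5, which encodes the neuroendocrine chaperone 7B2, rose from 50.6 to 152 CPM (1.59) and from 34.4 to 97.3 CPM (1.5). Stc1, the gene of the glycoprotein hormone stanniocalcin, rose from 65.8 to 396 CPM (2.59) and from 90.6 to 210 CPM (1.21). Both rose in type B cells as well, with log2 ratios of 2.30 and 1.88 for Scg5 and 2.03 and 0.85 for Stc1. Tbck rose by 1.44 and 0.76, the deubiquitinase gene Usp33 by 0.83 and 0.79, Miga1, a mitochondrial fusion gene, by 0.85 and 0.75, and the gene model AC149090.1 by 1.21 and 1.38 on the log2 scale. In the cells with at most 50 CP10k of other tubule markers the Tfebfl/fl ratio was 0.45 for Tbck and 0.55 for Miga1, and with barcodes thinned to 2000 UMIs the KAP ratio of Tbck was 0.49, all under 1.5-fold. Haus4, a subunit gene of the augmin complex, had 18.3, 19.8, 71.1 and 82.5 CPM and rose by 1.96 and 2.06.

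Part of the genes of antigen presentation and the interferon response rose in both genotypes. Of the 29 list members 13 had at least 10 CPM. Of these, 11 and 12 had ratios above 0, and of those tested 7 of 8 rose in Tfebfl/fl and 5 of 8 in KAP mice, with none lower and medians of 0.84 and 0.62, beside 8.26% and 2.96% of all genes tested. H2-K1 and H2-D1, class I heavy chain genes, had 238, 276, 432 and 424 CPM (0.86 and 0.62) and 105, 141, 208 and 237 CPM (0.99 and 0.75). Without the cells above 20 CP10k of other segments' markers H2-D1 had ratios of 0.73 and 0.576, the latter under 1.5-fold. B2m, the light chain, had 57.6, 58.0, 98.3 and 91.6 CPM (0.77 and 0.66). Ifi27 rose from 24.6 to 74.9 CPM (1.6) and from 20.7 to 62.3 CPM (1.59), and Ifitm3 by 0.84 and 0.83 on the log2 scale, though the latter was -0.013 when barcodes were thinned to 2000 UMIs before they were chosen. In each of these 5 genes both aged libraries lay above both young ones. For Ifitm3 this was not particular to type A cells. It had 21.0, 25.3, 37.6 and 45.1 CPM in type A cells and 68.9, 68.7, 202 and 100 CPM in principal cells. H2-K1 and H2-D1 are close relatives of one family, so that reads can be shared between them. The immune markers in the same cells summed to 19.3, 12.8, 23.4 and 30.6 CPM, led by Ptprc in the young and Cd74 in the aged libraries, and their part in the result was not tested.

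**Figure D4:**
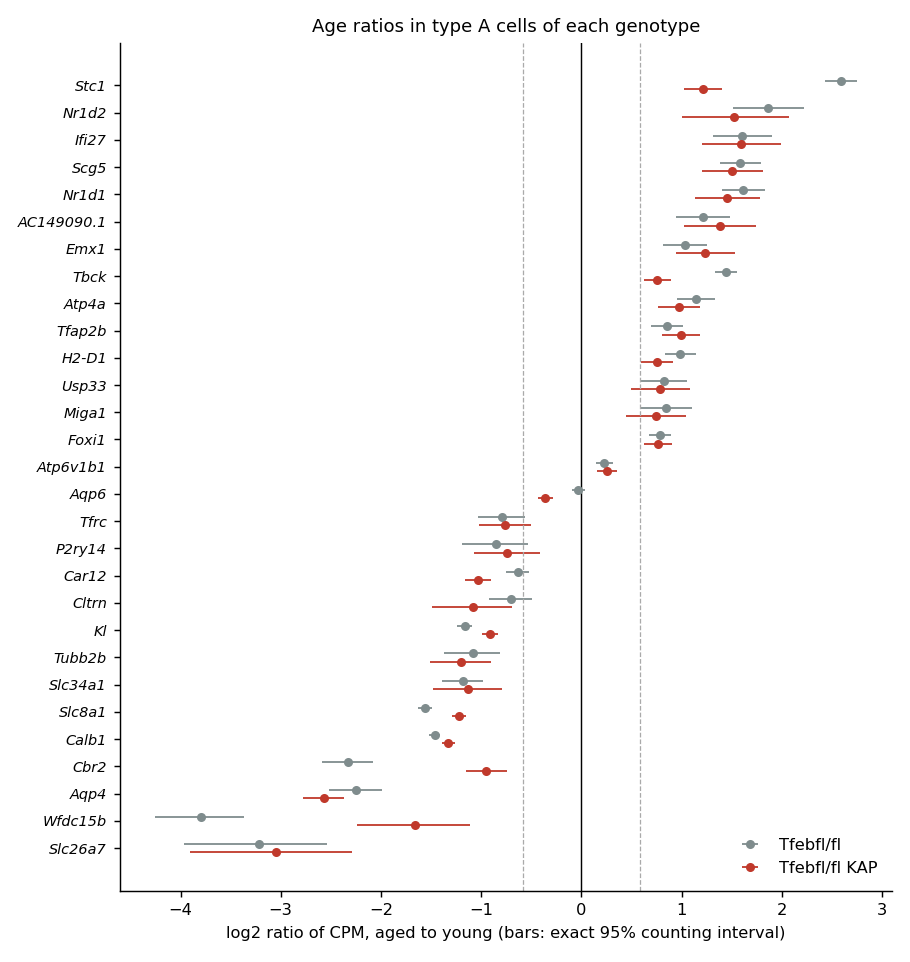
Log2 ratio of aged to young CPM in type A cells for Tfebfl/fl (grey) and Tfebfl/fl KAP mice (red), with exact 95% counting intervals. Shown are the genes described for age in both genotypes (Kap, at 0 counts in the aged KAP library, has no ratio) and Slc26a7, Ifi27, Nr1d2, Car12, P2ry14, Aqp6 and Atp6v1b1, and dashed lines mark 1.5-fold. Scg5, Nr1d1, Ifi27 and Emx1 lie near the same value in both genotypes, and Aqp6 and Atp6v1b1 lie inside the dashed lines.

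The genes that fell with age belonged partly to type A cells and partly to other segments. Cbr2, the gene with the highest ratio of type A to type B cells, fell from 184 to 36.6 CPM (log2 ratio -2.33) and from 158 to 82.0 CPM (-0.95). P2ry14 fell by 0.86 and 0.74 on the log2 scale, Tubb2b, a tubulin gene, from 75.4 to 35.6 CPM (-1.09) and from 80.7 to 35.0 CPM (-1.20), and Tfrc, the transferrin receptor gene, from 91.7 to 52.9 CPM (-0.79) and from 92.6 to 54.7 CPM (-0.76). Wfdc15b fell by 3.8 and 1.66 on the log2 scale. The falls of Cbr2, Wfdc15b, Tubb2b and Tfrc were not particular to type A cells. The type B ratios were -2.33 and -1.26 for Cbr2 and -1.98 and -2.56 for Wfdc15b. They were -0.68 and -0.90 for Tubb2b and -0.37 and -1.21 for Tfrc. Aqp4, the basolateral water channel of principal cells, had 161, 359, 33.8 and 60.5 CPM (-2.25 and -2.57), and it fell by 1.75 and 1.98 in principal cells themselves.

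Calb1, Slc8a1 and Kl, genes of calcium and phosphate handling in the connecting tubule, fell in the sums. Their ratios changed in size or direction when cells rich in other segments' RNA were left out. Calb1 had 2616, 1857, 948 and 739 CPM (-1.47 and -1.33), Slc8a1, the sodium-calcium exchanger gene, 1562, 1529, 528 and 657 CPM (-1.56 and -1.22), and Kl, the gene of klotho, 1106, 1014, 493 and 540 CPM (-1.17 and -0.91). In type B cells the ratios were -0.88 and -1.24 for Calb1, -0.72 and -0.74 for Slc8a1 and -0.61 and -0.54 for Kl. In principal cells they were -0.75 and -0.90 for Calb1, -1.24 and -1.42 for Slc8a1 and -0.85 and -0.90 for Kl. Per type A cell, the third quartile of Calb1 was 29.7, 21.5, 9.92 and 7.67 CP10k and its median 3.99, 1.38, 3.89 and 2.57 CP10k, so that the young excess lay in the upper cells. With the cells above 20 CP10k of other segments' markers left out (152, 82, 105 and 107 cells kept), the ratios turned to 0.83 and 1.17 for Calb1, 1.24 and 1.69 for Slc8a1 and 1.26 and 1.61 for Kl. Since Calb1 and Slc8a1 are among those markers, this sets their upper range by construction. In the cells with at most 50 CP10k of other tubule markers, Calb1 stayed lower in the aged libraries (-1.20 and -0.93), while Slc8a1 (2.22 and 1.0) and Kl (1.26 and 0.80) turned. Calb1, Slc8a1, Slc34a1 and Kap are among the markers of that limit as well, so that it also caps them by construction. The proximal tubule genes Slc34a1 (-1.19 and -1.13), Cltrn (-0.70 and -1.09) and Kap (803, 510, 332 and 0 CPM) were lower in the aged libraries as well, and Slc34a1 and Kap are themselves members of the proximal tubule sums given above. In the cells with at most 50 CP10k of other tubule markers the Tfebfl/fl ratios turned to 3.18 for Slc34a1, 1.59 for Cltrn and 2.89 for Kap, and without the cells above 20 CP10k the KAP ratio of Slc34a1 turned to 3.53 and the Tfebfl/fl ratio of Cltrn to 0.93. Without the highest Scrublet scores the latter was 0.017.

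Genes of energy metabolism and of the lysosome are read beside the shares of all genes tested, 8.26% higher and 1.71% lower with age in Tfebfl/fl and 2.96% higher and 2.42% lower in KAP mice (9.98% and 5.38% in either direction). For age, the 75 nuclear genes of oxidative phosphorylation had medians of -0.15 in Tfebfl/fl and -0.11 in KAP mice, with 59 and 63 of them below 0 and 1 and 0 lower. The 19 citrate cycle genes had medians of -0.26 and -0.09 with 1 and 0 lower, and the 14 glycolytic genes -0.04 and -0.11 with none past the threshold. The 12 mitochondrially encoded genes went opposite ways, with medians of -0.60 (6 lower, 1 higher) and 0.42 (3 higher), as did the mitochondrial share of the UMI sums given above. The 20 oxidative defence genes had medians of -0.21 and -0.20, with 1 higher and 1 lower in Tfebfl/fl and 2 lower in KAP mice. The 45 lysosomal genes had medians of 0.00 and -0.02 for age. Of 39 tested, 1 was higher and 3 lower in Tfebfl/fl mice, and 1 was higher in KAP mice. The Tfebfl/fl count is near the share of all genes only with both directions together (9.98%). By direction, fewer were higher and more lower than among all genes, a difference that was not tested. The 20 autophagy genes had medians of 0.15 and 0.08, with 2 and 0 higher. Of the 3 cell cycle inhibitor genes with at least 10 CPM, 3 were higher in Tfebfl/fl and 1, Cdkn2c, in KAP mice. Cdkn2c had 20.3, 14, 38.3 and 37.1 CPM (0.92 and 1.41), Cdkn1b 41.1, 48.9, 76.6 and 66.7 CPM and Cdkn1a 33.1, 58.3, 50.2 and 52.2 CPM.

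Tfebfl/fl KAP and Tfebfl/fl libraries were then compared within each age. In young mice 2.37% of 6239 genes were higher and 1.46% lower in KAP mice, and in aged mice 0.394% of 6606 were higher and 1.94% lower. Centring changed the young split from 148 higher and 91 lower to 118 and 122, and the aged split from 26 and 128 to 46 and 87, and leaving mitochondrial and ribosomal protein genes out of the totals gave 123 and 160 in young mice. Only 3 genes were higher and 17 lower at both ages among 6092 tested at both (0.0492% and 0.279%), and 27 passed the threshold in opposite directions. Tfeb itself had 31.1, 34.7, 38.8 and 35.8 CPM in type A cells, log2 ratios of 0.15 in young and -0.12 in aged mice. A 3′ end count need not lie in the deleted part of the gene and does not check the deletion. Of the 45 lysosomal genes with at least 10 CPM, 24 were above and 21 below 0 at either age, with medians of 0.01 and 0.01 and 1 and 0 past the threshold of 38 tested. The autophagy list had medians of 0.00 and -0.11 over 20 genes with 0 past the threshold, where 15 genes were tested.

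Higher at both ages were Aqp4 (1.16 and 0.84) and the carboxylesterase gene Ces1d, with 45.3, 75.2, 56.2 and 85.1 CPM (0.73 and 0.60). The third gene, Defb29, a beta-defensin gene named after its values were seen, lay below the naming minimum with 17.3, 39.9, 19.4 and 29.6 CPM. The 8 principal cell markers had a genotype median of 0.43 in young type A cells, where 3 were higher (2.37% of all genes). In aged mice the median was 0.03 and 1 was higher (0.394% of all genes). In principal cells themselves the Aqp4 ratios were 0.21 and -0.03. Those named as lower at both ages were mostly genes of the proximal tubule. They were Cltrn (-1.21 and -1.60), the phosphate transporter gene Slc34a1 (-1.25 and -1.20), Spink1 (-1.12 and -0.89), the sodium bicarbonate cotransporter gene Slc4a4 (-1.18 and -0.71), Acsm2 (-0.67 and -2.21), Sult1d1 (-0.69 and -0.61) and Kap (-0.66 in young mice). Proximal tubule markers exceeded 20 CP10k in 29, 3, 4 and 1 type A cells. Sult1d1 did not follow the proximal tubule sums across age, with 116, 72.2, 176 and 115 CPM. Without the cells above 20 CP10k of other segments' markers the ratio was 0.98 for Cltrn, 1.37 for Acsm2 and 0.15 for Slc4a4 in young mice, and 0.91 for Slc34a1 and 0.082 for Spink1 in aged mice. The ratio of Ces1d in aged mice was -0.46 in cells with at most 50 CP10k of other tubule markers. With barcodes thinned to 2000 UMIs before they were chosen, the ratio of Kap in young mice was 0.015 (interval -0.071 to 0.101).

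The genes of the immediate early response, which many stimuli induce within minutes, followed genotype in opposite ways at the 2 ages. In young mice 17 of 18 list members had ratios above 0 and 6 were higher in KAP cells (median 0.44), while in aged mice 18 of 18 had ratios below 0 and 8 were lower (median -0.52). Of all genes tested, 2.37% were higher in young and 1.94% lower in aged mice. Atf3 had 620, 1253, 1520 and 860 CPM (1.02 and -0.82) and the nuclear receptor gene Nr4a1 179, 309, 353 and 197 CPM (0.79 and -0.85). The libraries ranked with young Tfebfl/fl lowest, aged Tfebfl/fl highest and both KAP libraries between for each of these 2 genes. The corresponding age comparisons, made from the same 4 libraries, had medians of 0.82 in Tfebfl/fl (13 of 18 higher) and -0.26 in KAP mice (1 lower), beside 8.26% higher and 2.42% lower of all genes. For Atf3 the opposite signs were not particular to type A cells. Its genotype ratios were 0.84 and -0.94 in type B and 0.74 and -0.76 in principal cells. Heat shock genes had medians of 0.53 (5 of 12 higher) in young and -0.18 (1 lower) in aged mice for genotype, with Hspa5, the chaperone of the endoplasmic reticulum, at 417, 765, 539 and 466 CPM and 0.87 in young mice. The 12 mitochondrial genes of oxidative phosphorylation had medians of -0.52 in young mice, with 4 lower, and 0.34 in aged mice, with 1 higher. The nuclear ones had medians of 0.13 and 0.18 with 56 and 73 of 75 above 0, where 1 was lower in young mice and none passed the threshold in aged mice.

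Among the genes named for a single age, the growth factor gene Hbegf was highest in young KAP cells, with 141, 332, 193 and 146 CPM (1.24), followed by Sfn (1.15), Muc1 (1.10), Id1 (1.03), Hspb1 (0.98) and the tight junction gene Cldn4 (0.97). The lowest there were haemoglobin genes, at 0 in the young KAP library, and the proximal tubule gene Miox (-2.98). In aged mice the lowest after Kap, among genes with a mean of at least 50 CPM in both libraries together, were the protease gene Adamts1 with 34.8, 53.9, 118 and 35.0 CPM (-1.75), Slc25a25 (-1.24), Bhlhe40 (-1.07), the stress hormone gene Gdf15 (-1.04), Socs3 (-1.01), Rnd3 (-1.0) and Spry1 (-0.96). With the 106, 51, 55 and 56 cells that had at most 50 CP10k of other tubule markers, the ratio became 2.20 for Adamts1, 0.14 for Socs3 and 0.94 for Rnd3. The highest were the thick limb gene Umod (2.25), Ckb (1.27), Cbr2 (1.17), the kinase gene Sgk1 (0.87), Npnt (0.82), the kallikrein gene Klk1 (0.78), Slc12a3 of the distal convoluted tubule (0.72) and Ppp1cc (0.62). Sgk1 turned to -0.52 in the smaller set of cells, and Umod to -0.079 when cells above 20 CP10k of other segments' markers were left out, a removal that caps Umod by construction since it is one of those markers. Further genes named from the age comparison in Tfebfl/fl mice were Icam1 (2.26), Irf1 (1.99), Adamts1 (1.76) and Socs3 (1.5) as higher, and Slc12a1 (-5.27), Egf (-4.74), Gatm (-3.83) and Umod (-3.65), genes of the thick limb and proximal tubule, as lower. Slc12a1 (126, 25.6, 3.28 and 0.26 CPM), Egf (114, 36.7, 4.29 and 12.7 CPM) and Gatm (136, 20.4, 9.58 and 2.33 CPM) were also lower in the aged than in the young KAP library. Umod went the other way there, from 105 to 146 CPM (0.48, interval 0.28 to 0.67). A difference between genotypes was not tested. From the comparison in KAP mice Kng2 was higher (1.02) and Gdf15 (-1.63), Id1 (-1.53), Manf (-1.25) and Igfbp5 (-1.25) were lower.

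**Figure D5:**
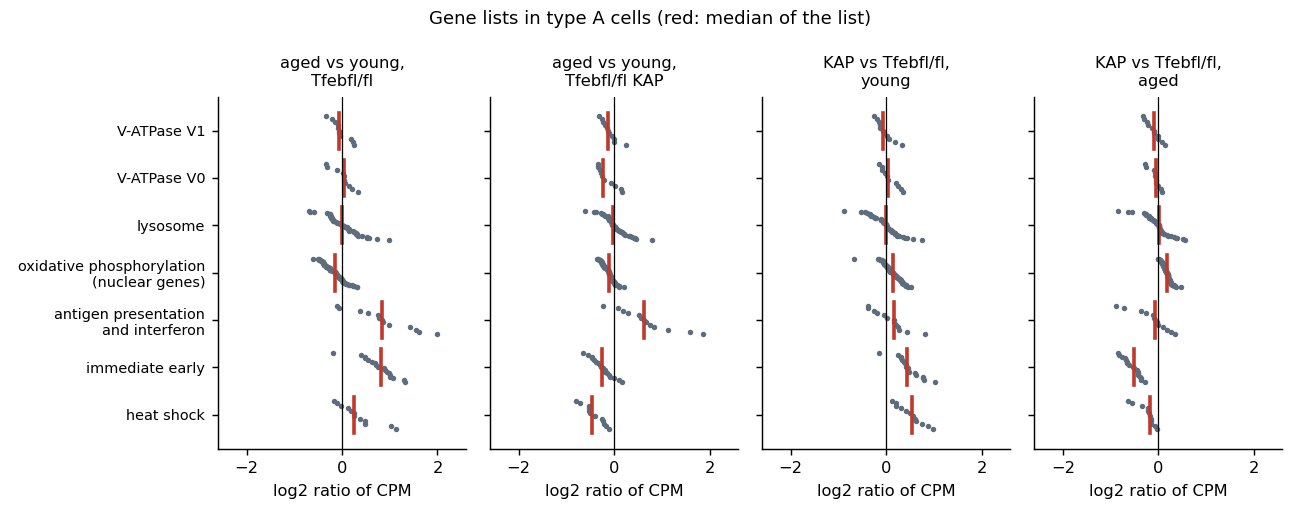
Log2 ratio of CPM in type A cells for each gene of 7 lists with a mean of at least 10 CPM (dots) and the median of the list (red), in the 4 comparisons. V-ATPase (rule genes included) and lysosome medians stay between -0.23 and 0.04, antigen presentation rises with age in both genotypes (0.84 and 0.62), and immediate early medians change sign between the comparisons.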

How the data were processed

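The authors deposited 1 table of UMI counts per library (32285 genes), made from 10x Genomics reads aligned to mm10 with Cell Ranger 6.0.0. The submitters' processing notes also name Seurat 4.4.0 and SoupX, which removes ambient RNA. Listed entries equal to 0 made up 2.90, 12.5, 9.41 and 12.9% of the 4 tables, which a matrix fresh from counting does not list, and all values were whole numbers.

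UMIs of the chosen barcodes were summed per library and divided by their total (CPM). Ratios carry exact 95% intervals from the 2 counts. No test was run, since each group was 1 library. A count of 0 allows 3 counts, or 0.500, 0.874, 0.756 and 0.778 CPM. Named genes had a mean of at least 50 CPM and were the 12 highest and 12 lowest for age in both genotypes, 8 and 8 for genotype at both ages and for each single comparison, and 12 and 12 against type B and principal cells, genes named Gm with digits or ending in Rik and mitochondrial genes aside, with genes of fixed lists. A gene that met this rule is not reported here. The members and lists were chosen with earlier results of these data known. Doublets were not removed, and Scrublet (scanpy 1.11.5) served as an alternative. Counts were simulated for age in Tfebfl/fl mice over 6486 genes with counting error alone, the error that the intervals assume. In them 95.8% of true ratios lay in their interval and 99.0% of 2-fold changes were found. This checks the computation only, since differences between cells, mice or pools were not simulated. The 12 alternatives were mitochondrial, pump and Slc4a1 cutoffs, thinning, Scrublet, removal of cells rich in other tubule markers, centring, totals, the mean over cells and the CPM minimum. The removal at 20 CP10k was chosen after seeing the data. Intervals were computed with scipy 1.17.1 and numpy 2.4.6 in Python 3.11.15, tables were handled in pandas 2.3.3 and figures drawn in matplotlib 3.10.9.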

Additional observations from a re-analysis of the deposited data

Results flagged for a closer look

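In type A cells, 14 genes of the lists or named above, with a mean of at least 50 CPM, passed the 1.5-fold threshold in opposite directions, either with age in the 2 genotypes or with genotype at the 2 ages. The difference between the log2 age ratios (KAP minus Tfebfl/fl), which equals that between the genotype ratios (aged minus young), was not tested, since each group was 1 library. It was below 0 for 12 of them. Among genes of the immediate early and stress responses it was -1.84 for Atf3, -1.64 for Nr4a1, -1.28 for Fosb, -1.31 for Btg2, -1.42 for Gadd45b, -1.26 for Dnajb1 and -1.70 for Irf1. It was -2.38 for Adamts1, -2.13 for the mitochondrial carrier gene Slc25a25, -1.92 for Gdf15, -1.37 for Rnd3 and -1.82 for Cldn4. It was above 0 for genes of other tubule segments, at 4.12 for Umod and 1.75 for Slc12a3. Some of the ratios behind these differences turned in smaller sets of cells. With at most 50 CP10k of other tubule markers, Adamts1 turned to -0.28 for age in Tfebfl/fl and to 2.20 for genotype in aged mice, and Rnd3 to 0.94 for genotype in aged mice. Without the cells above 20 CP10k of other segments' markers, Umod, itself one of those markers and so capped by the removal, turned to -0.079 for genotype in aged mice. For Atf3 and Irf1 the opposite signs were not particular to type A cells. In type B cells the genotype ratios in young and aged mice were 0.84 and -0.94 for Atf3 and 0.21 and -1.34 for Irf1.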

How the results depend on the processing

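No paired analysis was possible because each group was 1 library without a replicate number, and no replicate could be left out. Among the 148 ratios within type A cells, changes of direction were counted only where the main interval left out no difference. None occurred under the mitochondrial, pump or Slc4a1 cutoffs, centring, the other totals or the mean over cells. The CPM minimums choose which genes are tested and leave each ratio unchanged. No ratio of type A to type B or principal cells changed direction under those cutoffs, thinning, Scrublet or the removals of cells. These cell type ratios were not recomputed under the other alternatives. The log2 ratio of the share for age in Tfebfl/fl mice was 0.14 with at most 20% of UMIs from mitochondrial genes and 0.35 without the cells above 20 CP10k of proximal, thick limb, distal or erythroid markers, and that for genotype in young mice was -0.46 with the former.

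Genes past the fold numbered 647, 344, 239 and 154 for age in Tfebfl/fl, age in KAP, genotype in young and genotype in aged mice. They were 259, 131, 106 and 64 with a mean of at least 50 CPM and 1411, 905, 627 and 486 with at least 5 CPM. In cells with at most 50 CP10k of other tubule markers the last 3 were 674, 375 and 382, and without the cells above 20 CP10k those for age in KAP and genotype in young mice were 560 and 363. Of the 23 genes described for age in both genotypes, 20 to 23 stayed past 1.5-fold in both pairs except in those 2 sets of cells, where 14 and 15 did.

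Without the cells above 20 CP10k, the age ratios in Tfebfl/fl and KAP mice turned to 0.83 and 1.17 for Calb1, 1.24 and 1.69 for Slc8a1 and 1.26 and 1.61 for Kl, and to 0.93 for Cltrn (Tfebfl/fl) and 3.53 for Slc34a1 (KAP). Genotype ratios turned to 0.98 for Cltrn, 1.37 for Acsm2 and 0.15 for Slc4a4 in young mice, and to 0.91 for Slc34a1, 0.082 for Spink1 and -0.079 for Umod in aged mice. In cells with at most 50 CP10k, age ratios in Tfebfl/fl mice turned to 2.89 for Kap, 2.22 for Slc8a1, 3.18 for Slc34a1, 1.26 for Kl, 1.59 for Cltrn, -1.30 for Car15, -0.28 for Adamts1 and -0.0053 for Tfap2b, and in KAP mice to 1.0 for Slc8a1, 0.80 for Kl and 0.11 for Cltrn. Genotype ratios turned to 0.044 for Cltrn and 0.65 for Slc4a4 in young mice, and to -0.46 for Ces1d, -0.52 for Sgk1, 2.20 for Adamts1, 0.14 for Socs3 and 0.94 for Rnd3 in aged mice. Without the highest Scrublet scores, Cltrn turned to 0.017 for age in Tfebfl/fl and Acsm2 to 0.079 for genotype in young mice. With thinning to 2000 UMIs, Ifitm3 turned to -0.013 for age in KAP and Kap to 0.015 for genotype in young mice. Both sets of cells are smaller, and the cause of each turn was not tested. Calb1, Slc8a1, Slc34a1, Kap and Umod are among the markers of both limits, which cap them by construction. Some turned ratios had intervals on both sides of no difference. With at most 50 CP10k these were Tfap2b, Slc4a4, Ces1d, Sgk1, Socs3, Adamts1 for age, and Cltrn in KAP and in young mice. Without the cells above 20 CP10k they were Slc4a4, Spink1 and Umod, and under Scrublet or thinning every turn was of this kind. For these the turned direction lay within counting error.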
